A study of Homo sapiens with 11 samples.

Results

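Messenger RNA of 50 genes of DNA replication and mitosis was measured in lung adenocarcinoma cells engineered to express TRIM58, a ubiquitin ligase of the tripartite motif family. The genes were fixed by name, and each was read at the probe with the highest mean level over all 11 arrays. Of these 50 genes 49 had a named probe, among 20249 genes named on the array. PLK1, a mitotic kinase, had no matched probe and has no value here.

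The study used 2 established lung adenocarcinoma cell lines, A549 and HCC827. Cells of each line were infected with a retrovirus that carried FLAG-tagged wild-type TRIM58 (TRIM58-WT) or with the empty vector (mock), and all groups were selected with the drug G418. A549 mock was represented by 4 arrays of 3 control cells (arrays 1-1 and 1-2 are both control cell 1), A549 TRIM58-WT by 3 arrays of 3 cells, and HCC827 mock and HCC827 TRIM58-WT by 2 arrays of 2 cells each. The methods describe isolated clones, the study calls the HCC827 mock and mutant transfectants of its growth assay crude, and the labels do not say which each numbered cell is. So p-values measure the spread between these cells, and an effect of the transgene and a difference between clones or cultures cannot be told apart.

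DNA replication starts when origins are licensed by CDC6, CDT1 and the MCM helicase, and continues with nucleotide supply, the polymerases and PCNA, the clamp that holds them on DNA. Mitosis follows through cyclin B and CDK1, the spindle motors and kinetochore proteins, and the checkpoint that holds back anaphase. Cells that divide produce these mRNAs in waves, the replication genes under E2F factors around the start of S phase and the mitotic genes under factors that bind CHR and CCAAT elements later, so their summed level in a culture is widely read as a sign of proliferation.

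The promoters of the genes carry the letters of those elements, and 6 are shown here because the results below turn on these genes. RefSeq promoter windows (assembly GRCh38.p14) were found for 41 of the 50 genes, in 52 windows of the 250 bases before a transcription start. Capitals mark E2F-type letters (TTTCCCGC, TTTGGCGC or TTTCGCGC), the cell cycle homology region or CHR (TTTGAA) and the CCAAT box (CCAAT), each on either strand, and the last base stands next to the start.
PCNA, chr20:5126623-5126872, minus strand: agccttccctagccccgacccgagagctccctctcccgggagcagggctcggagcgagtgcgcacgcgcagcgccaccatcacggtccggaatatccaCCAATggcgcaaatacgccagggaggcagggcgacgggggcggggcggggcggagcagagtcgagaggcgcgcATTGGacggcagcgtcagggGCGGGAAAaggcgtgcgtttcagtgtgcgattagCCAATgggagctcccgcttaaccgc
E2F2, chr1:23531234-23531483, minus strand: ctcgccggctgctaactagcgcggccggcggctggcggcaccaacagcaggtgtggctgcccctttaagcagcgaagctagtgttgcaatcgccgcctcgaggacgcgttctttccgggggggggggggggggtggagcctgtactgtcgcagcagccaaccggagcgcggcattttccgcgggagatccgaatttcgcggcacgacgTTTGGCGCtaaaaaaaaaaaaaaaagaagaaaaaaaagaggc
E2F1, chr20:33686386-33686635, minus strand: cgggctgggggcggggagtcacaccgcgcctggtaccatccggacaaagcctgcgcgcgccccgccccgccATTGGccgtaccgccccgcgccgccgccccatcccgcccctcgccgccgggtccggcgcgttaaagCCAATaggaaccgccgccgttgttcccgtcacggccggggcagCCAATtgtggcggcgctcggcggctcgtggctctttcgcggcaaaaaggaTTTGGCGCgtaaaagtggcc
CDK1, chr10:60778081-60778330, plus strand: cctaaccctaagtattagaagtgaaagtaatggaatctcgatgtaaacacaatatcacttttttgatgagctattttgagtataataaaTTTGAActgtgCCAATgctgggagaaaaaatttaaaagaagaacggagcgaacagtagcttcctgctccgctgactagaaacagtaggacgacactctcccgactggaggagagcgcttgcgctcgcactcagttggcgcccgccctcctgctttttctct
MKI67, chr10:128126424-128126673, minus strand: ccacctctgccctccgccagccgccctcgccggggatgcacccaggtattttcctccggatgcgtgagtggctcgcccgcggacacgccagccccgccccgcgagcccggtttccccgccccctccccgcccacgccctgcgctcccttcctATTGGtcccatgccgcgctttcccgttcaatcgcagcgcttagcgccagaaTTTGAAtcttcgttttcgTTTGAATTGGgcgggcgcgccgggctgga
CDC20, chr1:43358731-43358980, plus strand: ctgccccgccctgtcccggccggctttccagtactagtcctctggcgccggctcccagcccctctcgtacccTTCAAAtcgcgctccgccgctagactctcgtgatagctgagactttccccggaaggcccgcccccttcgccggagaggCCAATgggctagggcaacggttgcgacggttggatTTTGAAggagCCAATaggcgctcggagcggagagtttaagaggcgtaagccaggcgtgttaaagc
The PCNA, E2F2 and E2F1 windows shown each held 1 match of the E2F type. Another window of PCNA held none of that type. The CDK1 window shown held 1 CHR match, 1 CCAAT match and none of the E2F type. Another window of CDK1, chr10:60778228-60778477, held 1 E2F-type, 2 CHR and 2 CCAAT matches. The MKI67 and CDC20 windows held 2 CHR matches each and none of the E2F type, and in MKI67 a CHR match and a CCAAT match share bases. E2F-type letters stood in 25% of the 52 windows of these genes and in 2.32% of all 35116 windows. CHR letters stood in 26.9% against 13.3%, and CCAAT in 76.9% against 32%. These are letter matches, not measured binding.

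Levels are given as log2 of the background-subtracted spot signal minus the 75th percentile of the same array, so a level of 0 is the brightness that 75% of the probes do not exceed. The 11 arrays lay on 2 slides, and each slide held both A549 groups. At least 40.1% of the 42405 probes of an array were well above background, and 48 or 49 of the 49 genes were. The 3 A549 arrays of lowest signal were dimmer than the rest: the 75th percentile signal was 60.3 on the array labelled mock 3, 62.5 on TRIM58-WT 2 and 56.6 on TRIM58-WT 3, and 90.5 to 125 on the other 8. The array of TRIM58-WT 1 stood apart in another way, with a median over all probes of -2.47 against -3.51 to -3.14 on the other arrays. The A549 values that move most without these arrays are given both ways below.

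The probe of TRIM58, which has 1 spot, was well above background on a single array, that labelled A549 mock 3. Its level there was -0.71, and on the other 10 arrays it was between -5.64 and -4.63. The construct held the coding sequence, and where the probe lies in the transcript is not given in the sources used here, so the probe does not settle whether transgene RNA was present. The keratins KRT7, KRT8 and KRT18 were well above background on every array. All 6 epithelial markers were in A549 mock and both HCC827 groups, and 4 of 6 in A549 TRIM58-WT, where KRT19 was between -2.56 and -2.47 against 6.11 to 7.52 in A549 mock, mock 3 being lowest. None of 4 endothelial markers was above background on any array, and of 8 fibroblast markers COL1A1 was, on all 3 A549 TRIM58-WT arrays and 1 HCC827 mock array, and LUM, on each A549 mock array but mock 3. The summed fibroblast level ran from -1.41 to 0.39 in A549 mock and from -0.67 to 0.98 in A549 TRIM58-WT, and that of 5 leukocyte markers, of which CD68, CD14 or PTPRC were above background, from 1.94 to 2.30 and from 0.74 to 1.07. The lung lineage genes NKX2-1 and NAPSA were on every HCC827 array, and in A549 NKX2-1 on none and NAPSA on 1 array of each group. What these differences contribute to the results below was not tested.

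CDKN1A encodes p21, an inhibitor of cyclin-dependent kinases that p53 induces. In A549 mock it stood at -0.24 and -0.46 on the arrays of cell 1, -0.16 in cell 2 and 0.04 in cell 3, and with TRIM58-WT at -0.69, -1.27 and -1.01. The groups did not overlap. The change was -0.83 (SE 0.21, adjusted p = 0.0624 by limma, Benjamini-Hochberg adjustment over 16919 probes), so it did not pass. In HCC827 the probe was not well above background on any of the 4 arrays.

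**Figure D1:**
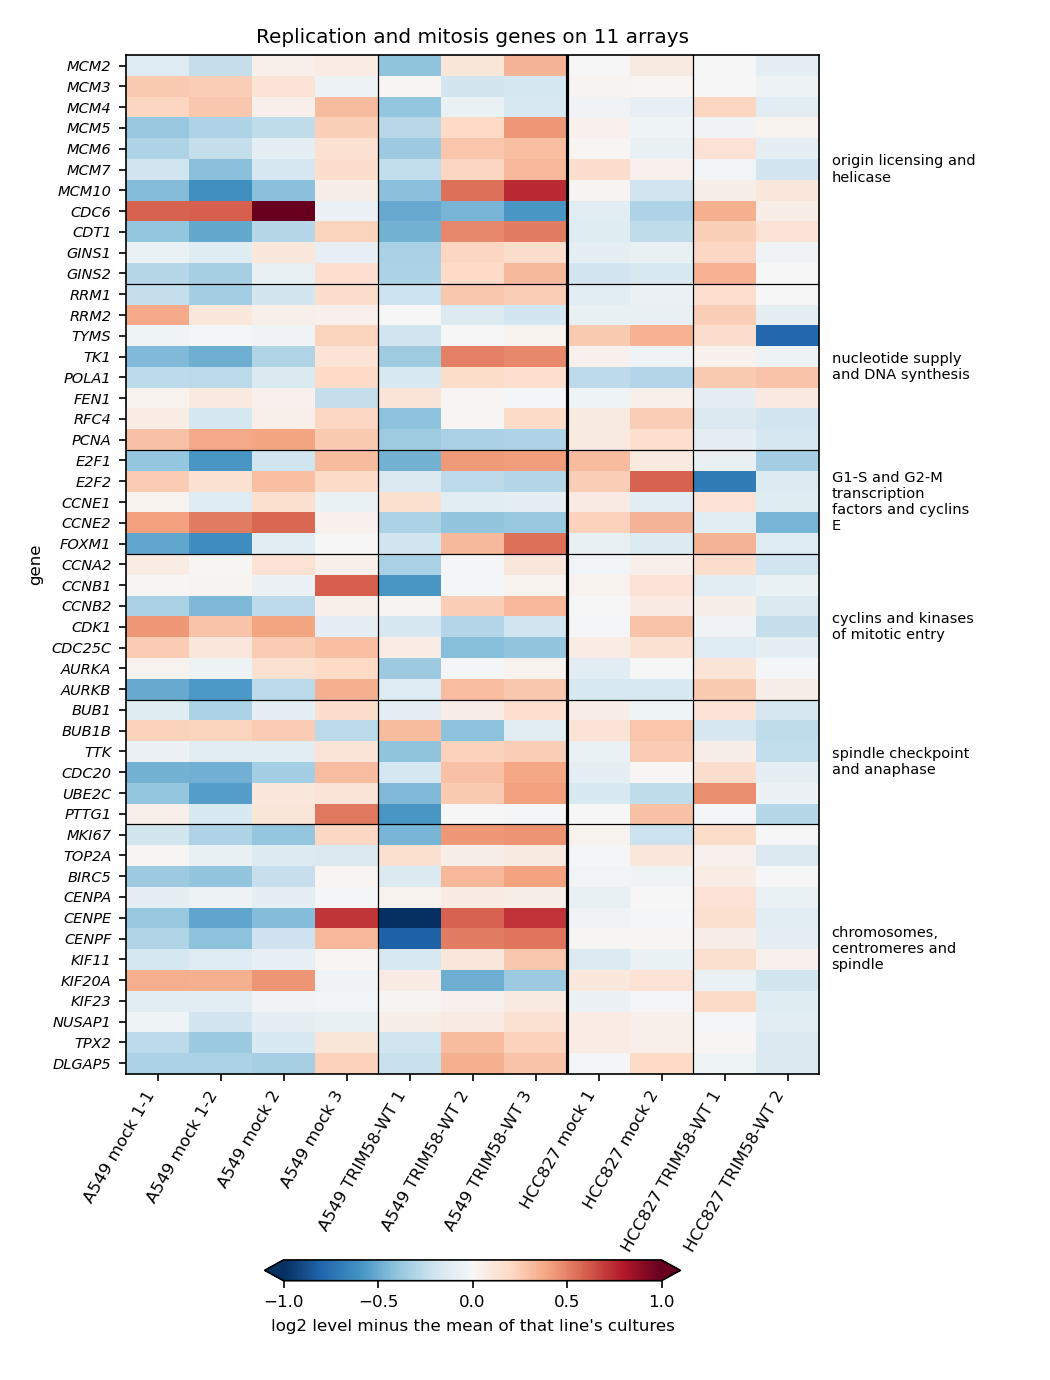
Log2 level of 49 genes (rows, grouped by role) on 11 arrays (columns) minus the mean of the cultures of that line; red is above and blue below the mean, and the colour scale ends at 1 and -1. The A549 arrays mock 3, TRIM58-WT 2 and TRIM58-WT 3 are red for most genes, and PCNA, E2F2 and CCNE2 are blue in TRIM58-WT and red in mock.

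The first comparison asks whether these mRNAs differed between TRIM58-WT and mock cells of A549. PCNA was lower, and no other gene passed. None of 48 genes tested changed at an adjusted p under 0.05 and at least 2-fold, where 6.92% of all 16919 probes did. At the adjusted p alone 1 gene passed, PCNA, against 9.01% of the probes, and 5 had an unadjusted p under 0.05, against 25.3%. The median change was 0.11, beside 0.06 over all probes tested, and 31 genes were above 0 and 17 below, while 55.1% of the probes were above 0. With the median of each array subtracted in place of the 75th percentile, every change was lower by the same amount, so that the median of the genes was -0.26 and that of all probes -0.31, and 5 genes were above 0. With the 3 dim arrays left out, so that TRIM58-WT 1 stood alone against mock 1 and mock 2, 20 genes were above 0 and 28 below, with a median of -0.13. The median over all probes tested in that fit was 0.12. With all the arrays, 28 of the 48 genes lay above the median of all probes, a count that subtracting array medians cannot change. It was 31 with quantile normalization and 23 with normexp background correction. The groups of genes below are also given against that median.

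PCNA stood at 6.26 and 6.34 on the arrays of mock cell 1, 6.36 in mock 2 and 6.23 in mock 3. In the 3 TRIM58-WT cells it stood at 5.61, 5.64 and 5.65. Mock was therefore above TRIM58-WT on every array, and the gap was wider than the spread within either group. PCNA fell by 0.66 (SE 0.14, 1.58-fold, adjusted p = 0.0390 by limma, n = 3 against 3). The other 2 PCNA probes changed by -0.74 (adjusted p = 0.0381) and -0.94 (adjusted p = 0.0322). Within slide 1 the difference was -0.70 and within slide 2 -0.64. The adjusted p rose above 0.05 when either mock 1, mock 2, TRIM58-WT 2 or TRIM58-WT 3 was left out, to between 0.160 and 0.182, and when the quantiles were matched between arrays (0.113), when array medians were subtracted (change -1.03, adjusted p = 0.157) or when dim probes were kept (0.203). Without the 3 dim arrays, which leaves TRIM58-WT 1 alone in its group, the PCNA change was -0.72.

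Among the E2F factors and the cyclins E, which drive entry into S phase, CCNE2 and E2F2 were lower on every TRIM58-WT array. CCNE2 stood at -0.12 and -0.01 on the arrays of mock cell 1, 0.04 in mock 2 and -0.49 in mock 3, and at -0.85, -0.93 and -0.91 with TRIM58-WT. Its change of -0.72 (SE 0.19) was the lowest of all 48 genes and did not pass (adjusted p = 0.0685, limma). E2F2 stood at 4.02 and 3.92, 4.07 and 3.96 in mock, and at 3.62, 3.51 and 3.47 with TRIM58-WT, a change of -0.47 (SE 0.15, adjusted p = 0.106, limma). The partner genes gave other values: CCNE1 changed by -0.03, E2F1 by 0.25 and FOXM1, a factor of mitotic genes, by 0.45 (adjusted p = 0.351, limma). Without mock 3, CCNE2 and CDC6 passed the adjusted p alongside PCNA, and without TRIM58-WT 1 CDC25C did. Those fits called more of all probes at the adjusted p and 2-fold, 2192 and 1468, against 1171 with all arrays. Without the 3 dim arrays, which leaves 1 TRIM58-WT cell, CCNE2 changed by -0.83.

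The licensing and helicase genes were above 0 for 8 of 10 and above the median of all probes for 6, with a median change of 0.14 that turned to -0.23 with array medians subtracted. Without TRIM58-WT 2 or TRIM58-WT 3 it was 6 of 10 above 0, and without all 3 dim arrays 2 of 10. MCM10, which helps to activate the helicase, had the highest change of all members, 0.59 (SE 0.35, adjusted p = 0.357, limma), and MCM4 the lowest of its group, -0.41 (SE 0.17, adjusted p = 0.195). MCM10 stood between -0.34 and 0.33 in mock and at -0.15, 0.82 and 1.02 with TRIM58-WT, so the groups overlapped through TRIM58-WT 1. The MCM10 change was 0.94 without TRIM58-WT 1 (adjusted p = 0.0562), 0.36 without TRIM58-WT 3 and 0.05 without the 3 dim arrays. CDC6, which loads the helicase, was not tested because no group had it well above background on every array. It was on 3 of 4 mock arrays, with a mock mean of -1.62, and on none of the 3 TRIM58-WT arrays, with a measured mean of -2.65. Set against the dimmest level well above background, mock was at least 1.92-fold higher, with no test. Without mock 3, the mock array that had kept it out, CDC6 entered the test through the mock group alone and was called. The filter favours that direction, so the call is no support for a change.

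Of the genes of nucleotide supply and DNA synthesis 4 were above 0 and 4 below, PCNA lowest and TK1, the thymidine kinase of S phase, highest at 0.42 (adjusted p = 0.450, limma), which became 0.70 without TRIM58-WT 1 and 0.02 without the 3 dim arrays. Of the cyclins and kinases of mitotic entry 5 of 7 were below 0 and below the median of all probes. CDC25C, the phosphatase that activates CDK1, changed by -0.49 (SE 0.19, adjusted p = 0.169) and CDK1 by -0.44 (SE 0.19, adjusted p = 0.206), and their groups did not overlap. CCNB2, a mitotic cyclin, changed by 0.40 (adjusted p = 0.242). CCNB1 changed by -0.37 at the probe used (adjusted p = 0.454) and by -0.67 at its other, dimmer probe (adjusted p = 0.0492), so its probes differed in the call at the adjusted p. In the checkpoint group the range was -0.40 for PTTG1, the securin, to 0.34 for CDC20, which activates the anaphase ligase.

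Of the 12 genes of chromosomes, centromeres and spindle 11 were above 0 and above the median of all probes, which 7 were with normexp background correction, and 1 was above 0 with array medians subtracted, where MKI67 turned to -0.09 and CDC20, of the checkpoint group, to -0.03. Without the 3 dim arrays 7 of the 12 were above 0. Below in the values reported was KIF20A, a kinesin of cytokinesis, at -0.51 (SE 0.23, adjusted p = 0.220, limma), and the highest was BIRC5, the survivin of the chromosomal passenger complex, at 0.39 (adjusted p = 0.319), which became 0.16 without the 3 dim arrays. MKI67 encodes Ki-67, the nuclear antigen used to count cycling cells. It stood at 2.74 and 2.62, 2.54 and 3.13 in mock, and at 2.47, 3.36 and 3.38 with TRIM58-WT. TRIM58-WT cells were both the lowest and the highest, and the change was 0.28 (SE 0.31, adjusted p = 0.628, limma). It was 0.58 without TRIM58-WT 1, 0.45 without mock 3, 0.13 without TRIM58-WT 3 and -0.15 without the 3 dim arrays. The other Ki-67 probes changed by 0.22 and 0.01. Over all 48 genes the groups did not overlap for 11, or 22.9%, against 31.0% of the probes. TRIM58-WT was above in 4 (CENPA, KIF23, NUSAP1 and TOP2A, against 15.9% of the probes) and below in 7 (PCNA, CCNE2, E2F2, CDC25C, CDK1, MCM4 and RRM2, against 15.1%).

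**Figure D2:**
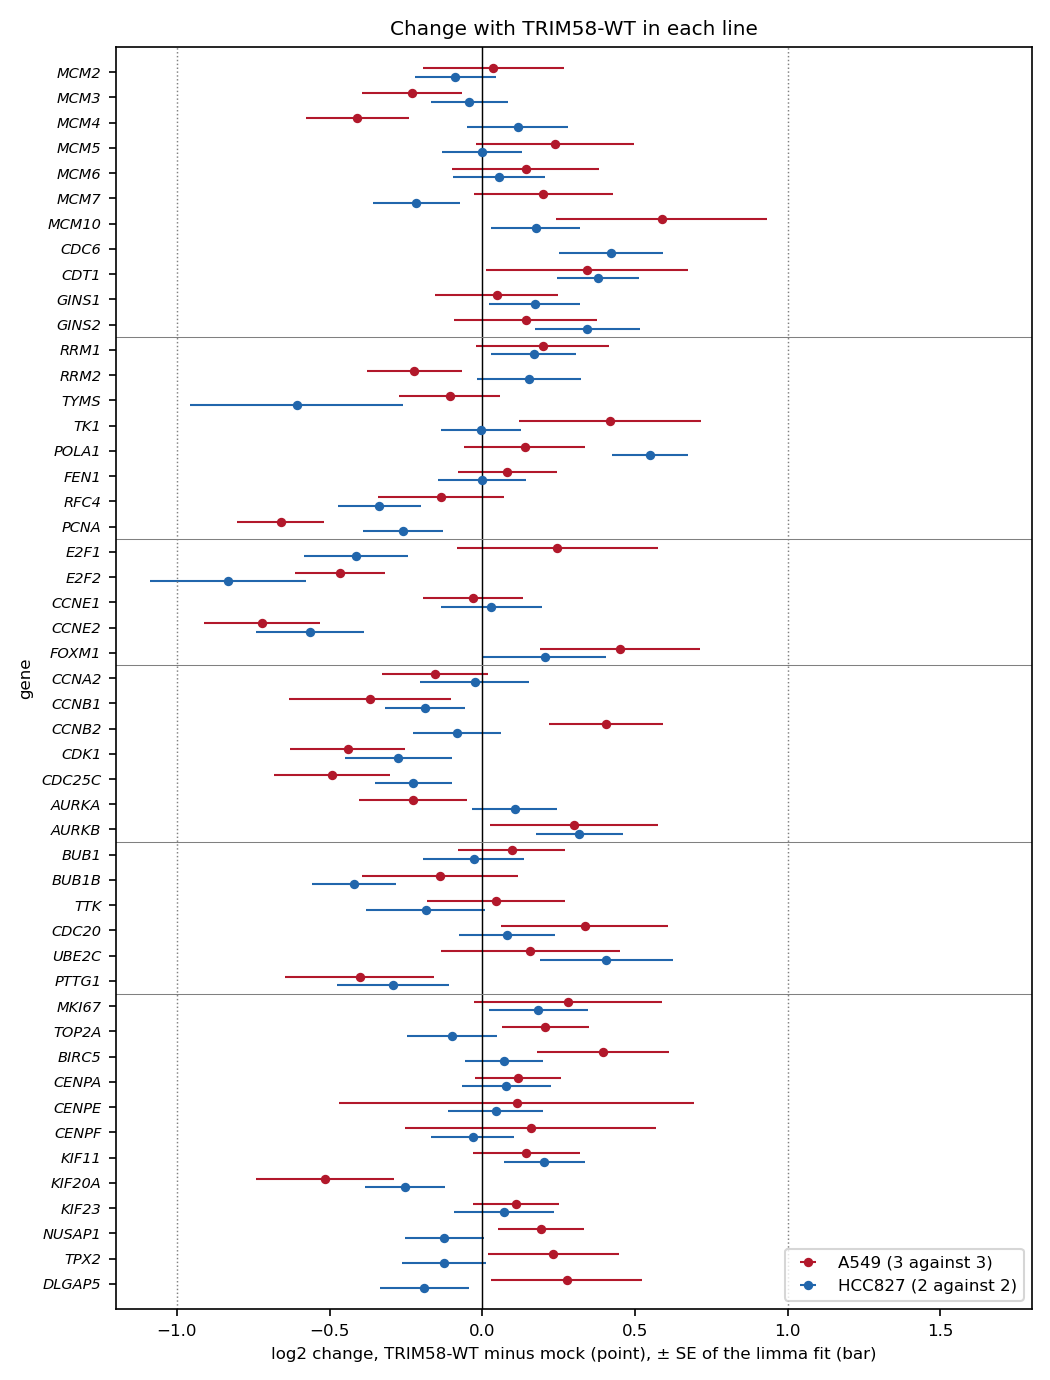
Log2 change of each gene, TRIM58-WT minus mock (horizontal axis), with the SE of the limma fit as a bar, in A549 (red, 3 cells against 3) and HCC827 (blue, 2 against 2). No point lies beyond the dotted lines at 1 and -1, and PCNA, E2F2 and CCNE2 lie left of 0 in both lines.

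The same comparison in HCC827 gave no gene past the test. None of 49 genes was called (0.885% of 19542 probes were, both with and without the 2-fold limit), and 5 had an unadjusted p under 0.05, against 20.3% of the probes. Changes ran from -0.83 to 0.55, with 22 above 0 and 27 below and a median of -0.004, beside 51.1% of probes above 0. With 2 cells against 2 many groups do not overlap: 28 of these genes, or 57.1%, against 56.7% of the probes.

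E2F2 had the lowest change, -0.83 (SE 0.26, adjusted p = 0.194, limma). It stood at 1.59 and 1.93 in mock and at 0.64 and 1.21 with TRIM58-WT. CCNE2 changed by -0.56 (adjusted p = 0.201), from 0.90 and 1.01 to 0.57 and 0.21, and E2F1 by -0.41 (adjusted p = 0.275). FOXM1 changed by 0.20, a sign that turned without TRIM58-WT 1 (-0.03). The highest change was that of POLA1, the catalytic subunit of the polymerase that primes DNA synthesis, 0.55 (SE 0.12, adjusted p = 0.131), at 2.76 and 2.73 in mock and 3.29 and 3.31 with TRIM58-WT. The arrays of each POLA1 group lay close together, and the groups did not overlap.

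In the other groups the highest and lowest genes were these. CDC6 changed by 0.42 (adjusted p = 0.272) and MCM7 by -0.22 among the licensing genes. BUB1B, a checkpoint kinase-like protein, changed by -0.42 (adjusted p = 0.209) and UBE2C, the conjugating enzyme of the anaphase ligase, by 0.41 (adjusted p = 0.365). AURKB, the kinase of the passenger complex, changed by 0.32 and CDK1 by -0.28, and KIF11, the spindle motor, by 0.20 and KIF20A by -0.25. The TYMS value of -0.61 rests on TRIM58-WT 2, where its 2 spots differed with an SD of 7.20 on the log2 scale, while on the other 10 arrays that SD was at most 0.37. MKI67 stood at 1.52 and 1.27 in mock and at 1.67 and 1.49 with TRIM58-WT, so the groups overlapped, and its change was 0.18 (adjusted p = 0.541).

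Set side by side, 17 of the 48 genes tested in both lines were above 0 in both, 13 below 0 in both and 18 opposite. The lines share no samples. PCNA, E2F2, CCNE2, CDC25C and CDK1 were lower with TRIM58-WT on every array in both lines, which is 5 of 48 genes or 10.4%, against 4.62% of the 15821 probes tested in both. No gene was higher on every array in both lines, against 5.56% of the probes. The 5 were named after their values were seen. Under each of 5 other scalings 4 to 7 genes were lower on every array in both lines, and PCNA, CCNE2 and CDC25C were among them every time, E2F2 and CDK1 not. The share of all probes under those scalings was not computed, so these counts have no background beside them. After quantile normalization KIF11 and RRM1 were higher in both. In HCC827 PCNA stood at 4.75 and 4.83 in mock and 4.57 and 4.49 with TRIM58-WT, a change of -0.26 (adjusted p = 0.340, limma). CDC25C went from 1.49 and 1.56 to 1.28 and 1.32, and CDK1 from 3.41 and 3.71 to 3.38 and 3.18, where the lower mock value and the higher TRIM58-WT value differed by less than the spread within either group.

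**Figure D3:**
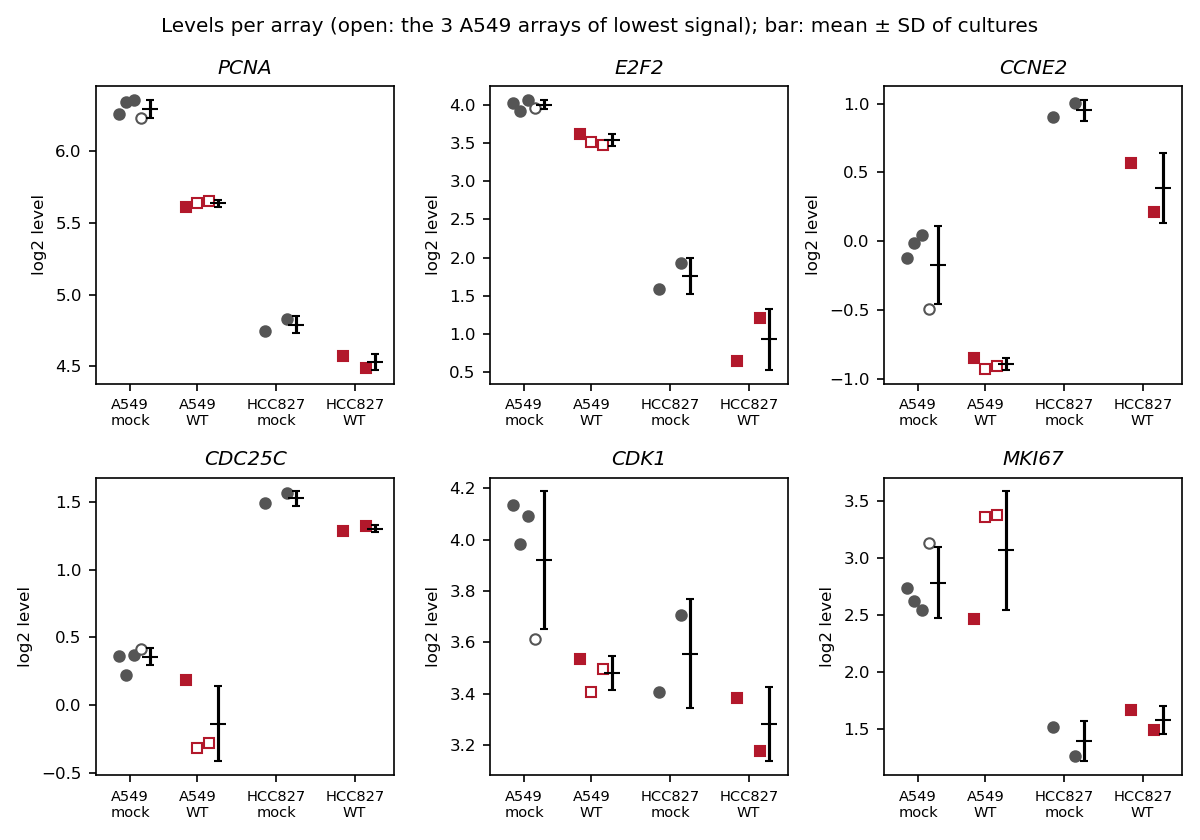
Log2 level on each array (vertical axis) for 6 genes, mock as grey circles and TRIM58-WT as red squares, with the mean and SD of the cultures in black. Open symbols are the dim A549 arrays mock 3, TRIM58-WT 2 and TRIM58-WT 3. For the first 5 genes TRIM58-WT lies below mock in each line, and for MKI67 the A549 groups overlap.

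Whether the change differed between the lines was tested as an interaction over all 4 groups. None of 49 genes passed, where 3.85% of 20616 probes did, and 1 had an unadjusted p under 0.05, against 18.4%. That was CDC6, at -1.45 (SE 0.41, adjusted p = 0.0948, limma), whose TRIM58-WT value in A549 was not well above background and is only a bound. It passed without mock 3, the A549 mock array on which it was lowest, where 2211 of all probes passed against 794 with all arrays. It also passed with the 4 A549 mock arrays kept apart, which counts arrays 1-1 and 1-2 of control cell 1 as separate replicates, where 1352 passed. E2F1 had the highest value, 0.66 (SE 0.47). For PCNA the value was -0.40 (SE 0.20, adjusted p = 0.327, limma), so no difference between the lines was detected for PCNA.

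The mock cells of A549 and HCC827 were compared next, to show how the lines differ between cultures labelled as empty vector. These cells cannot be taken to lack TRIM58 RNA, since its probe was well above background on an A549 mock array, as given above. Of 49 genes 13 were called, or 26.5%, beside 29.6% of all probes, 8 of them higher in A549 (13.9% of the probes) and 5 lower (15.7%). At the adjusted p alone 22 passed, against 41.4% of the probes. The mock groups did not overlap for 35 genes, or 71.4%, against 68.5%, and 24 genes were above 0, against 47.8%. Of the genes of replication and of the E2F and cyclin E group the called ones were mostly higher in A549: E2F2 by 2.24 (SE 0.20), CCNE1 by 1.91 (SE 0.17), MCM10 by 1.72 (SE 0.34), PCNA by 1.51 (SE 0.14), GINS1, a subunit of the replicative helicase, by 1.32 (SE 0.20) and RRM1, the large subunit of ribonucleotide reductase, by 1.02 (SE 0.21). Adjusted p lay between 5.59e-05 for E2F2 and 0.00570 for RRM1 by limma. MCM2 (-0.73) and RFC4, a subunit of the clamp loader (-0.63), passed the adjusted p in the other direction, at less than 2-fold.

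Among the mitotic genes the checkpoint group was lower in A549, with 5 of 6 below 0 and a median of -0.98. CDC20 (-1.26, SE 0.27), BUB1 (-1.25, SE 0.19), which builds the checkpoint at kinetochores, and TTK (-1.08, SE 0.24), its starting kinase, were called, as were CDC25C (-1.17, SE 0.19) and CCNE2 (-1.13, SE 0.20), whose other probe gave -0.71 (adjusted p = 0.0771). TOP2A, which untangles sister chromatids, missed 2-fold at -0.99 (SE 0.15, adjusted p = 0.000839). Higher in A549 were MKI67 (1.39, SE 0.31, adjusted p = 0.00729) and KIF11 (1.37, SE 0.17, adjusted p = 0.000348). The cyclins E were split, CCNE1 higher and CCNE2 lower in A549, and all of their mock arrays were apart.

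BUB1 stood at 2.26, 2.06, 2.28 and 2.55 on the A549 mock arrays and at 3.64 and 3.53 in HCC827. CCNE1 stood at 4.50, 4.34, 4.64 and 4.40 against 2.67 and 2.48. CENPE, a kinetochore motor, had the lowest value, -1.58, but an SE of 0.58 and an adjusted p of 0.0569, with mock 3 at 2.18 and the other A549 mock arrays between 0.93 and 1.08. RRM1 lost the call in 7 alternatives, where it lay between 0.81 and 0.99. With normexp background correction MCM10 (0.87), CCNE2 (-0.80), CDC25C (-0.95) and TTK (-0.98) also fell short of 2-fold. CCNE2 did so over every probe of the gene (-0.92) and without A549 mock 3 (-0.97), TTK missed the adjusted p with array medians subtracted (0.0760), and without HCC827 mock 2 the calls of MKI67, CDC20 and TTK were lost. All HCC827 arrays lay on slide 1, with A549 mock array 1-1 and mock 2.

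**Figure D4:**
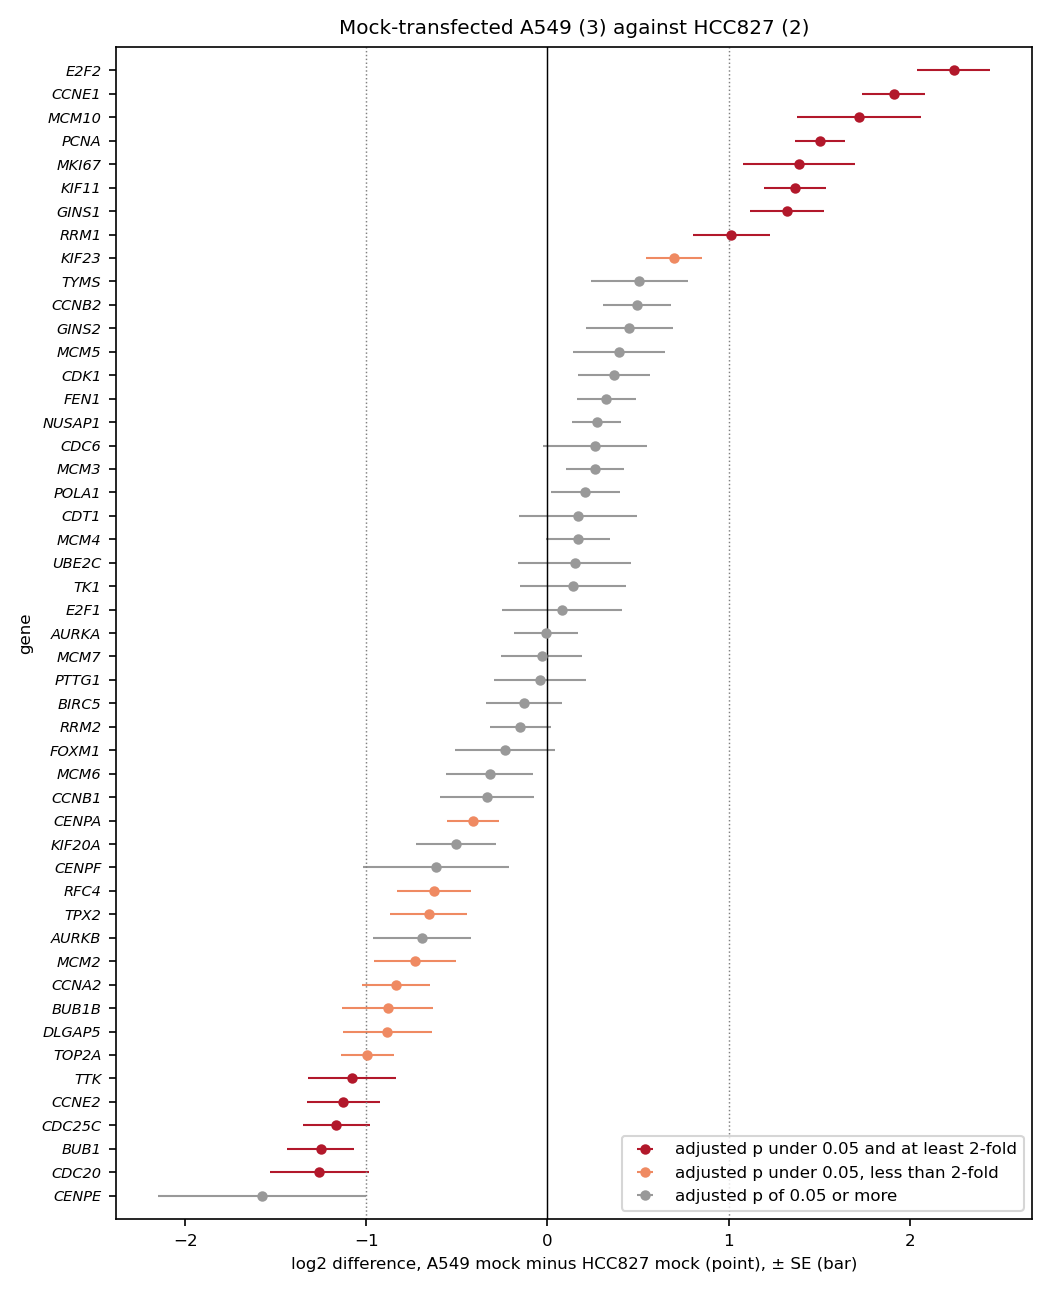
Log2 difference of each gene, A549 mock minus HCC827 mock (horizontal axis), with the SE of the fit over all groups as a bar. Dark red genes passed an adjusted p under 0.05 and 2-fold (8 right, 5 left), orange genes passed the adjusted p only, and grey genes did not.

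Some A549 cultures of the same group stood close together and others apart. Mock 1 and mock 2 differed by 0.5 (1.41-fold) or more in 1 gene of 49, where mock 1 was lower (4.93% of the probes were higher and 2.33% lower by that margin). The arrays of control cell 1, on different slides, agreed closely: array 1-2 minus array 1-1 had a median of -0.06 over 49 genes and a range of -0.27 to 0.11. TRIM58-WT 3 minus TRIM58-WT 2 ranged from -0.12 to 0.30. Within neither pair did a gene differ by 0.5 or more, where 3.67% of the probes were higher and 0.783% lower by that margin in the first pair, and 1.08% and 1.24% in the second. In contrast TRIM58-WT 2 exceeded TRIM58-WT 1 by 0.5 or more for 18 genes, 36.7% against 29.6% of the probes, and was lower by it for 2, against 15.8%. TRIM58-WT 3 exceeded TRIM58-WT 1 for 22 genes, 44.9% against 31.0%, and was lower for 0, against 13.8%. Mock 3 exceeded mock 1 by that margin for 14 genes, 28.6% against 24.5%, and was lower for 2, against 11.8%. Against mock 2 it was higher for 9, or 18.4%, against 22.6%, and lower for 3, against 14.2%. Between mock 3 and TRIM58-WT 2 the median was 0.03, with 0 genes higher (11.2% of the probes) and 4 lower (11.3%) by 0.5 in TRIM58-WT 2. In HCC827 the mock cultures did not differ by that margin in any gene (2.78% and 4.65% of the probes did), and TRIM58-WT 1 exceeded TRIM58-WT 2 for 2 genes and was lower for 1 (3.28% and 8.30%).

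The 3 A549 arrays of lowest signal, picked by that signal, were mock 3, TRIM58-WT 2 and TRIM58-WT 3. On 26 of 48 genes well above background throughout, or 54.2%, all 3 lay above the other 4 A549 arrays, beside 30.1% of 14942 probes, and on 4 genes, or 8.33%, below, beside 12.9%. CENPE stood at 2.18, 2.05 and 2.18 on these 3 and at 1.08, 0.93, 1.03 and 0.31 on the others. MKI67 stood at 3.13, 3.36 and 3.38 against 2.74, 2.62, 2.54 and 2.47. E2F1 stood at 3.17, 3.28 and 3.27 against 2.47, 2.27, 2.65 and 2.38. The genes below were BUB1B, FEN1, KIF20A and MCM3.

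These 3 arrays lie on slide 2, as does mock array 1-2, which stood with its partner on slide 1. How much of the pattern belongs to the cultures and how much to dim arrays cannot be told apart, since the same arrays carry both. Under 5 other scalings the count above was between 14 and 26 genes, with 20.1% to 30% of the probes. The count below was 0 to 10, with 4.3% to 17.8% of the probes. With quantile normalization 9 of 48 genes lay below against 16.8% of the probes, and with normexp 10 of 48 against 16.7%. So in these scalings the share of genes below exceeded that of the probes, and in the others it did not. Above in all 6 scalings were 10 genes: MKI67, E2F1, MCM5, MCM10, CDT1, AURKB, CDC20, CENPE, CENPF and DLGAP5. No gene was below in all 6. The share of all probes above or below in all 6 was not computed, so these counts have no background beside them. The gaps moved with the scaling. MKI67 exceeded TRIM58-WT 1 by 0.89 in TRIM58-WT 2 and by 0.91 in TRIM58-WT 3 in the values reported and by 0.56 and 0.45 with normexp background correction, and mock 3 exceeded mock 2 by 0.59 and by 0.18.

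**Figure D5:**
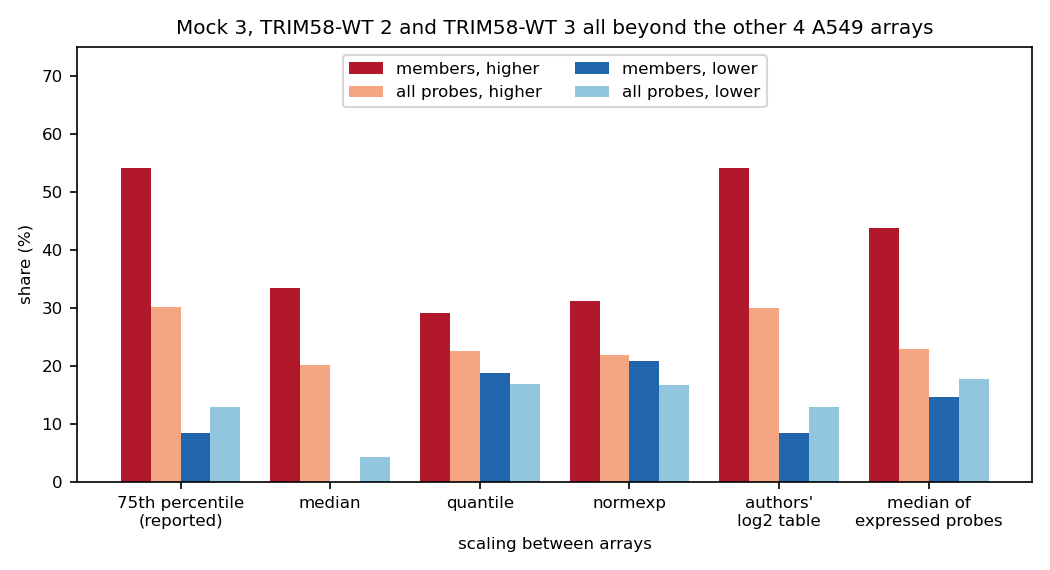
Share of the 48 genes and of all probes (vertical axis, percent) for which mock 3, TRIM58-WT 2 and TRIM58-WT 3 all lay above (red) or all lay below (blue) the other 4 A549 arrays, under 6 scalings (horizontal axis); dark bars are the genes and light bars all probes. In each scaling the share of genes above exceeds that of probes, 54.2% against 30.1% in the scaling reported and 14 of 48 genes against 22.5% of the probes after quantile normalization.

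Within slides the TRIM58-WT change was below 0 on both for 14 genes, above 0 on both for 17 and opposite for 18. On slide 1, which held TRIM58-WT 1 with mock array 1-1 and mock 2, 19 of 49 genes were above 0 with a median of -0.16. On slide 2, which held TRIM58-WT 2 and 3 with mock array 1-2 and mock 3, 33 were above 0 with a median of 0.23. No share or median of all probes within a slide stands beside these values. So a shift of these genes is not separated from a shift of all probes. MKI67 was -0.18 on slide 1 and 0.49 on slide 2, and CENPE -0.74 and 0.56. E2F2 (-0.42 and -0.45), CCNE2 (-0.81 and -0.67) and CDK1 (-0.58 and -0.35) kept theirs. With slide as a block and the mock arrays apart, 4 genes passed the adjusted p in A549: PCNA, CCNE2, E2F2 and MCM4. That fit counts arrays 1-1 and 1-2 of control cell 1 as separate replicates. It called 1801 of all probes at the adjusted p and 2-fold, against 1171 in the values reported.

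In A549 the change was also lower for whole chromosomes. The median over 490 genes of chromosome 5 was -0.48 and over 377 genes of chromosome 8 -0.50, beside 0.05 over the other 10315 genes. All 4 members on chromosome 5 (CCNB1, CDC25C, PTTG1 and KIF20A) were below 0, with a median of -0.45, and so were both on chromosome 8 (MCM4 and CCNE2). Of the 42 elsewhere 11 were below 0. In HCC827 the medians of chromosomes 5 and 8 were -0.02 and 0.00, and 4 of 4 and 1 of 2 members were below 0. The part of the chromosomes in the changes of these 6 genes was not tested. PCNA lies on chromosome 20, E2F2 on chromosome 1 and CDK1 on chromosome 10.

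A longer list of 133 other genes of replication, mitosis and the E2F, RB and DREAM regulators, 131 with a probe, moved as little with TRIM58-WT. None of 128 tested in A549 and none of 129 in HCC827 was called or passed the adjusted p. Unadjusted p under 0.05 was seen for 15 and 17, where 25.3% and 20.3% of the probes had it. The medians were 0.06 and -0.03. Between the mock cells 20 of 129 were called, or 15.5% against 29.6% of the probes, 3 higher in A549 (13.9% of the probes) and 17 lower (15.7%). FANCI, a DNA crosslink repair protein (1.94), CDC25B, a phosphatase of mitotic entry (1.88), and PKMYT1, a kinase that restrains CDK1 (1.19), were higher. RFC1, the large subunit of the clamp loader (-1.82), CDC7, the kinase that fires origins (-1.74), and HMGB2, a chromatin protein (-1.67), were the lowest.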

How the data were processed

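Cy3-labelled RNA of stable transfectants was hybridised to 11 single-colour Agilent arrays. The authors deposited an intensity for each spot, with local background subtracted by Agilent Feature Extraction (11.5.1.1 in the file headers, 10.7 in the submitters' processing notes). The authors also deposited log2 values of the same arrays, used as an alternative. After a baseline per probe, 95.5% of them lay within 0.01 of the values computed here, and the largest difference was 4.93.

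With R 4.3.3 and limma 3.58.1, control and outlier spots were left out, spots of a probe averaged, log2 taken and the 75th percentile of 42405 probes subtracted. Mock arrays 1-1 and 1-2 were averaged. Symbols came from RefSeq accessions (27241 probes). A probe entered lmFit and eBayes if no array of 1 or more of the groups compared had it near background, with Benjamini-Hochberg adjustment over all of them. A call required an adjusted p under 0.05 and 2-fold (the adjusted p alone for the difference between lines). The number of arrays limits the precision. The fit was tested on simulated data. Figures used Python 3.11.15 and matplotlib 3.10.9.

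The members, lists, motifs and tests were chosen with earlier results of these data known. Named were MKI67, CDKN1A, TRIM58, every member called, the highest and lowest member of each role in each line, and the 3 largest called genes of the longer list in each direction; others were chosen after their values were seen. Alternatives were median, quantile, normexp (offset 50) and expressed-probe scaling, the authors' log2 table, other filters, all probes of a gene, separate mock arrays, both lines in one fit, replicate and slide blocks, the t-test and Mann-Whitney test that the methods name, and each replicate left out. Scaling to the median of expressed probes, leaving out the 3 dim arrays together, and all scalings of the counts over them, were added after seeing the data.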

Additional observations from a re-analysis of the deposited data

How the results depend on the processing

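In A549 fits with 2 or more cells a group, no member was called except without mock 3, where CDC6 was. CDC6 entered that test through the mock group alone. The filter favours that direction, so the call of CDC6 is no support for a change. Leaving out a replicate therefore gave 0 to 1 called. The count at the adjusted p, 1 in the values reported, was 0 with median scaling, quantile normalization, no filter and the replicate block. It was also 0 with the methods' t-test and the Mann-Whitney test (whose smallest p for these groups is 0.1). It was 2 with both lines in one fit and 0 to 3 with a replicate left out. With the mock arrays separate it was 3, and with slide as a block 4, and both fits count arrays of the same control cell as separate replicates. The 3 dim arrays were left out together after seeing the data, which left 1 TRIM58-WT cell. The median change was -0.26 with median scaling, -0.132 without the 3 dim arrays (MKI67 -0.147) and 0.0213 to 0.234 with a replicate left out (highest without TRIM58-WT 1). Whether numbers of replicates pair the samples was not settled. Correlations of same-numbered A549 deviations were 0.50, -0.42 and 0.50. TRIM58-WT 1 and TRIM58-WT 3 correlated best with the mock of their own number, and TRIM58-WT 2 with mock 3 (0.57). With 2 cells a group the HCC827 value, 0.08, can only change sign between pairs, so it cannot decide. With the replicate block 1122 probes were called in A549 against 1171, and in HCC827 0 against 173, with 0 members in each. In HCC827 no member was called under any alternative, while probes called ranged from 0 (without either mock replicate, no filter, the methods' t-test) to 650 (median scaling), and FOXM1 turned to -0.0292 with normexp and lay between -0.0292 (without TRIM58-WT 1) and 0.438 with a replicate left out. In A549 median scaling turned MKI67 to -0.0878 and CDC20 to -0.0335; probes called there were 1112, 25.6% of them higher, against 50.5% of the 1171 reported, and 0 with the Mann-Whitney test, 24 with the methods' t-test, 507 with normexp, 609 without a filter, 673 with every array above background, 1729 with the mock arrays separate, 1801 with slide as a block and 297 (without mock 1) to 2192 (without mock 3) with a replicate left out. For the difference between the lines 1 member (CDC6) was called with the mock arrays separate and without mock 3. Its median was -0.33 with median scaling and -0.0551 to 0.188 with a replicate left out, and MKI67 turned to -0.302 with median scaling, -0.0256 with normexp and -0.0459 over every probe, and lay between -0.0583 (without TRIM58-WT 3) and 0.398 (without TRIM58-WT 1) with a replicate left out. Between the mock cells the count at the adjusted p was 22 in the values reported, 12 with median scaling, 16 without a filter, 26 with quantile normalization, 28 with normexp and 12 (without HCC827 mock 2) to 26 with a replicate left out, and the median was -0.12 with quantile normalization, -0.18 with normexp and -0.113 to 0.0839 with a replicate left out. The counts over the 3 dim arrays were 16 above and 0 below with median scaling, 14 and 9 with quantile normalization, 15 and 10 with normexp, and 7 below with the expressed-probe median. The causes were not tested. The 2 or 3 cells a group and, for CDC6 and CDKN1A, a signal near background limit what could be seen.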
